A study of Mus musculus with 12 samples.

Results

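The 5 simple epithelial keratin genes Krt8, Krt7, Krt18, Krt19 and Krt20 were followed in kidneys of wild-type (WT) mice after renal ischemia-reperfusion injury (RIRI), with and without hypoxic preconditioning (HPC). They were taken by symbol from a deposited table of 25553 genes, and all 5 had a row. There were 4 groups of 3 mice: HPC followed by RIRI (preconditioned RIRI), RIRI without HPC (normoxic RIRI), HPC without RIRI (preconditioned sham), and sham without HPC (normoxic sham). RIRI was made by clamping both renal pedicles through the abdomen for 45 min, and kidneys were taken after 12 h of reperfusion. For HPC, mice breathed 8% oxygen at normal pressure in 3 daily sessions, which lasted 2 h, then 4 h, then 8 h. The labels give 1 batch number for all libraries, and neither the age, sex nor strain of the mice, nor the time between HPC and surgery. The values are FPKM, fragments scaled by gene length and library depth. Levels are set side by side between genes and between kidneys on this scale, which does not correct for differences in RNA composition.

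Keratins are the intermediate filament proteins of epithelial cells. Each filament is built from pairs of a type II and a type I keratin, and a keratin without a partner is degraded. Krt8 (type II) and Krt18 (type I) are the founding pair of simple epithelia and are made along the kidney tubule. Krt7 (type II) and Krt19 (type I) are typical of ducts and of the urothelium that lines the renal pelvis, and Krt20 (type I) is best known from gut epithelium and the surface cells of the urothelium. Keratins of simple epithelia are known as genes of the epithelial stress response in liver, gut and kidney.

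Positions are from the RefSeq annotation of GRCm38.p6, the assembly behind mm10. Strands, exon counts and distances between genes are from the GENCODE annotation of that assembly. Krt7 lies on the plus strand at chr15:101412403-101427806 with 9 exons. Krt8 lies on the minus strand at chr15:101996711-102004342 with 9 exons. Krt18 lies on the plus strand at chr15:102028216-102032026 with 7 exons, 23698 bases from Krt8 by GENCODE, and is the type I member beside a type II cluster. Krt19 with 6 exons at chr11:100140810-100145926 and Krt20 with 8 exons at chr11:99428385-99438153 both lie on the minus strand.

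The promoter windows of the 3 keratins whose window held a motif that was searched for are shown from RefSeq GRCm38.p6, each from 250 bases before to 50 bases after the annotated start, on the strand of the gene. Capitals mark TATAAA, the TATA box, or GGGCGG, the GC box, on either strand. The windows are Krt20 at chr11:99438104-99438403, Krt8 at chr15:102004293-102004592 and Krt7 at chr15:101412153-101412452.
Krt20: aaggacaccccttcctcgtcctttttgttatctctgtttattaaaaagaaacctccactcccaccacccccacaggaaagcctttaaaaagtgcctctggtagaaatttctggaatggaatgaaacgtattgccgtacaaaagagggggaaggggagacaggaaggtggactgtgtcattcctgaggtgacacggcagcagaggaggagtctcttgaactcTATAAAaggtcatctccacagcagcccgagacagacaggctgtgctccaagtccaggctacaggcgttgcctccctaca
Krt8: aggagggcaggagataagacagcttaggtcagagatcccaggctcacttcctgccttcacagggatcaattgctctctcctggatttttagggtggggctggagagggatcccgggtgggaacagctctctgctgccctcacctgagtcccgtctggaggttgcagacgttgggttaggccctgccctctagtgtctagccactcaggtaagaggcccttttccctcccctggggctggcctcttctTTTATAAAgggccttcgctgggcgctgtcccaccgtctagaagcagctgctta
Krt7: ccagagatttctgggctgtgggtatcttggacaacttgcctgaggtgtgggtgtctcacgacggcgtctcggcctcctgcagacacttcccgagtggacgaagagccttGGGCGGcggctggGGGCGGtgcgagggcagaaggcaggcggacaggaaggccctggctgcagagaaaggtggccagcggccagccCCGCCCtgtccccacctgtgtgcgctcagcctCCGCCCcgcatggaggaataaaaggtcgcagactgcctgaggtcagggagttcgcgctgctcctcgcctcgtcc
The Krt20 window held 1 TATAAA, beginning at position -29 from the start. The Krt8 window held TATAAA at position -1, and its reverse complement overlapped it at position -3. The Krt7 window held no TATAAA and 4 GC boxes, at positions -141, -128, -56 and -24. The Krt18 window held neither. Krt19 had no window among those available, so its promoter was not searched. Of 32851 RefSeq promoter windows of the same length, 13.6% held TATAAA and 35.7% held GGGCGG. None of the 4 windows held TGANTCA (AP-1, in 7.8% of windows), TTCNNNGAA (STAT, in 8.3%), ACGTG (hypoxia response, in 19.6%) or CCGGAA (ETS, in 14.9%). These matches describe letters in short windows only.

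All 5 keratins were higher in normoxic RIRI than in normoxic sham kidneys, where limma called 41.6% of tested genes higher. Krt20 was tested through its RIRI libraries alone, so it had to come out higher there. By mean FPKM Krt8 and Krt20 reached ranks 43 and 65 in normoxic RIRI kidneys. The mean of preconditioned RIRI kidneys lay between those of normoxic RIRI and normoxic sham kidneys for each keratin. Krt8, Krt18, Krt19 and Krt20 were lower in preconditioned than in normoxic RIRI kidneys, where 17.4% of tested genes were called lower, and Krt7 was not called. Between preconditioned and normoxic sham kidneys, where 0.421% of genes were called, no keratin was called. A whole-kidney level mixes all cells, so fewer cells of a type and less RNA per cell cannot be told apart.

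**Figure D1:**
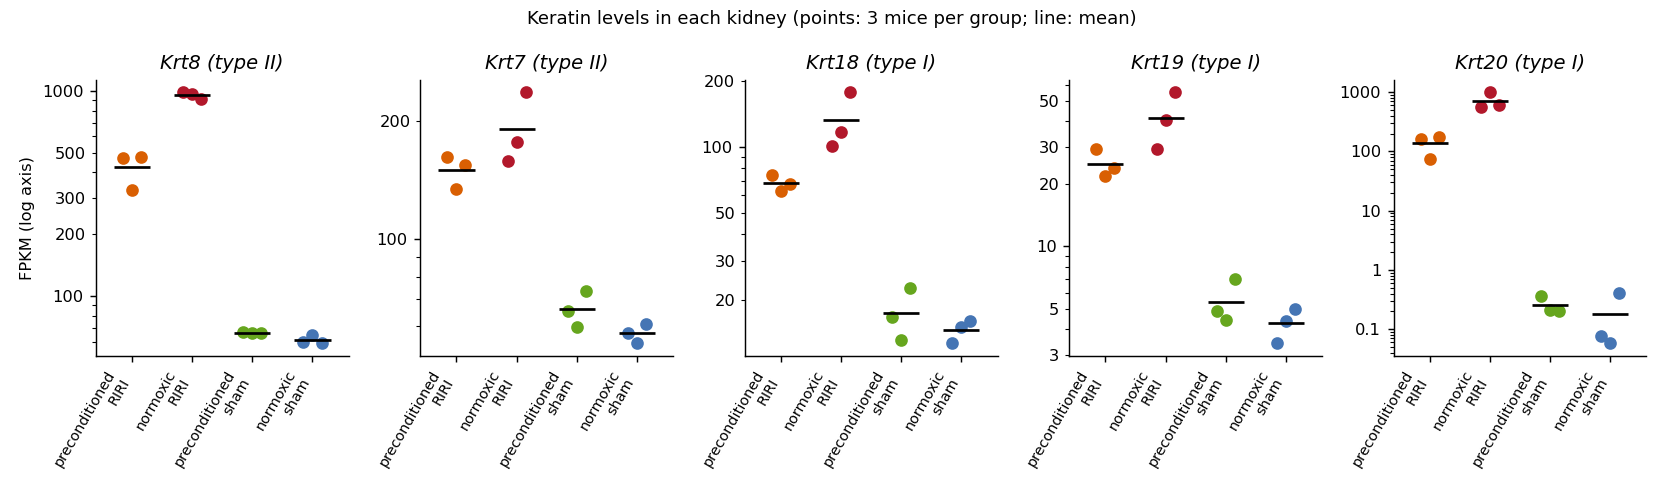
FPKM of the 5 keratins in each of 12 kidneys, on a log axis whose range differs between panels, with points for the 3 mice of a group and a line for their mean. Every RIRI kidney lies above every sham kidney for each keratin, and the groups of preconditioned and normoxic RIRI kidneys overlap for Krt7 and Krt19.

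Krt8, the type II keratin that pairs with Krt18, was at 472.0, 329.6 and 476.3 FPKM in preconditioned RIRI kidneys, 983.4, 968.1 and 911.4 in normoxic RIRI kidneys, 66.5, 66.37 and 65.96 in preconditioned sham kidneys and 59.94, 64.34 and 59.03 in normoxic sham kidneys. Each RIRI kidney was above each sham kidney, and all 3 preconditioned RIRI kidneys were below all 3 normoxic RIRI kidneys. Replicate 2 of preconditioned RIRI was the lowest of the injured kidneys. Ranked by mean FPKM over the genes of the table, Krt8 stood at place 140 in preconditioned RIRI, 43 in normoxic RIRI, 1022 in preconditioned sham and 1106 in normoxic sham. In normoxic mice it averaged 954.3 ± 37.9 FPKM in RIRI kidneys and 61.1 ± 2.84 in sham kidneys (SD, n = 3 each), a log2 fold change of 3.94 ± 0.12 (SE, BH-adjusted p = 5.85e-10, limma). Preconditioned RIRI kidneys averaged 425.9 ± 83.5 FPKM (SD, n = 3), 55.4% below the normoxic RIRI mean, and the log2 fold change was -1.18 ± 0.12 (adjusted p = 3.98e-05, limma).

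Krt7, the type II keratin of ducts, was at 161.9, 134.2 and 153.7 FPKM in preconditioned RIRI kidneys, 158.1, 176.9 and 236.3 in normoxic RIRI kidneys, 65.21, 59.6 and 73.55 in preconditioned sham kidneys and 57.41, 54.12 and 60.38 in normoxic sham kidneys. It was close to Krt8 in sham kidneys and below it in every RIRI kidney. The ranges of preconditioned and normoxic RIRI kidneys overlapped, since replicate 1 of preconditioned RIRI was above replicate 1 of normoxic RIRI. Its rise in normoxic mice, to 190.4 ± 40.8 FPKM in RIRI kidneys against 57.3 ± 3.13 in sham kidneys (SD, n = 3 each), was the smallest of the 5, at a log2 fold change of 1.70 ± 0.13 (adjusted p = 4.36e-07, limma). Between preconditioned RIRI kidneys, at 149.9 ± 14.2 FPKM, and normoxic RIRI kidneys the log2 fold change was -0.33 ± 0.13 with an adjusted p of 0.0706 by limma. Without replicate 1 of normoxic RIRI it was -0.45 (adjusted p = 0.0181), and without replicate 3 it was -0.16 (adjusted p = 0.268). Over all 21 alternatives the adjusted p ran from 0.0181 to 0.268.

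Krt18, the type I partner of Krt8, was at 74.12, 62.87 and 67.75 FPKM in preconditioned RIRI kidneys, 101.6, 117.7 and 178.2 in normoxic RIRI kidneys, 16.62, 13.03 and 22.67 in preconditioned sham kidneys and 12.64, 14.94 and 16.0 in normoxic sham kidneys. The 2 RIRI groups did not overlap each other or the sham groups, whereas the sham groups overlapped. Replicate 3 of normoxic RIRI and replicate 3 of preconditioned sham stood above the others of their groups. In normoxic mice Krt18 averaged 132.5 ± 40.4 FPKM in RIRI kidneys and 14.52 ± 1.72 in sham kidneys (SD, n = 3 each), with a log2 fold change of 3.07 ± 0.21 (adjusted p = 1.32e-07, limma). It fell to 68.25 ± 5.64 FPKM in preconditioned RIRI kidneys, 48.5% below the normoxic RIRI mean, with a log2 fold change of -0.91 ± 0.21 (adjusted p = 0.00508, limma).

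Krt19, the smallest of the keratins and one that lacks most of the tail domain, was at 29.44, 21.75 and 23.84 FPKM in preconditioned RIRI kidneys, 29.26, 40.36 and 55.1 in normoxic RIRI kidneys, 4.904, 4.413 and 6.975 in preconditioned sham kidneys and 3.432, 4.38 and 5.023 in normoxic sham kidneys. Its level was the lowest of the 5 in each RIRI kidney. Replicate 1 of preconditioned RIRI was just above replicate 1 of normoxic RIRI, so these groups touched. In normoxic mice it averaged 41.57 ± 12.96 FPKM in RIRI kidneys and 4.278 ± 0.80 in sham kidneys (SD, n = 3 each), with a log2 fold change of 2.98 ± 0.22 (adjusted p = 2.08e-07, limma). In preconditioned RIRI kidneys it averaged 25.01 ± 3.98 FPKM, 39.9% below the normoxic RIRI mean, with a log2 fold change of -0.68 ± 0.22 (adjusted p = 0.0255, limma). That call was lost without normoxic RIRI replicate 2 (adjusted p = 0.0588), normoxic RIRI replicate 3 (log2 fold change -0.45, adjusted p = 0.0991), preconditioned RIRI replicate 2 (adjusted p = 0.0897) or preconditioned RIRI replicate 3 (adjusted p = 0.065). Over the 21 alternatives its adjusted p ran from 0.00461 to 0.0991, and it was called in 15.

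Krt20 was close to absent from sham kidneys. It was at 159.9, 74.83 and 174.5 FPKM in preconditioned RIRI kidneys, 560.9, 994.0 and 598.1 in normoxic RIRI kidneys, 0.361, 0.2108 and 0.2016 in preconditioned sham kidneys and 0.07606, 0.05842 and 0.4025 in normoxic sham kidneys. The recovered reads behind these values numbered 10723, 5155 and 11721 in preconditioned RIRI, 36971, 64787 and 39808 in normoxic RIRI, 24, 14 and 13 in preconditioned sham and 5, 4 and 28 in normoxic sham. The RIRI groups did not overlap, and the sham groups did. By mean FPKM Krt20 ranked 489 in preconditioned RIRI, 65 in normoxic RIRI, 14323 in preconditioned sham and 14771 in normoxic sham, the widest move in rank of the 5.

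Krt20 averaged 717.7 ± 240.0 FPKM in normoxic RIRI kidneys and 0.179 ± 0.194 in normoxic sham kidneys (SD, n = 3 each). On the scale of FPKM + 1 its log2 fold change was 9.21 ± 0.29 (adjusted p = 7.5e-10, limma), and because it was so low in sham kidneys this figure depends on the added constant: it was 11.49 with 0.1 added and 12.36 with voom on recovered reads. In preconditioned RIRI kidneys it averaged 136.4 ± 53.8 FPKM, 81.0% below the normoxic RIRI mean, with a log2 fold change of -2.43 ± 0.29 (adjusted p = 0.000113, limma). This difference was the largest of the 5 in size, and it stayed past the threshold in all 21 alternatives, at -2.65 to -2.05.

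**Figure D2:**
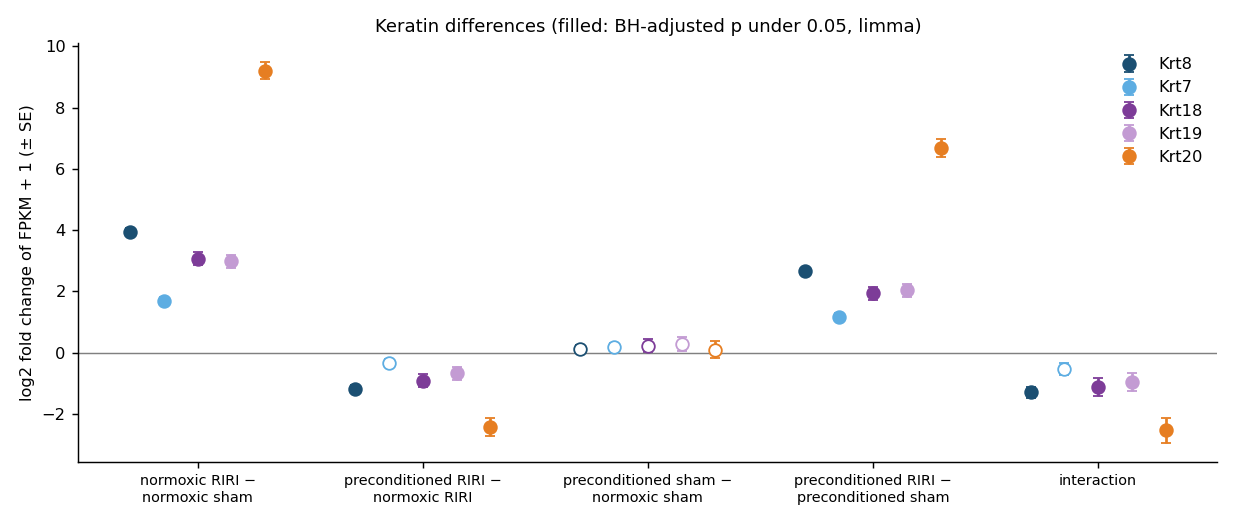
Log2 fold change of FPKM + 1 with its SE for each keratin in 4 comparisons and the interaction (the injury difference of preconditioned mice less that of normoxic mice), with filled points called at a BH-adjusted p under 0.05 by limma. Krt20 lies farthest from 0 in both injury comparisons, and open points near 0 show that no keratin was called between the sham groups.

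Set against the rest of the transcriptome, the rise of all 5 keratins in normoxic RIRI stands in a comparison in which 41.6% of 12357 tested genes were called higher than in normoxic sham and 71.7% were called in either direction. For each keratin every normoxic RIRI kidney lay above every normoxic sham kidney, as it did for 42.9% of tested genes. Krt20 passed the filter on low values through its RIRI libraries alone, so it had to come out higher than in sham kidneys. Between preconditioned and normoxic RIRI, 4 of the 5 were called lower, against 17.4% of tested genes, while 24.7% were called higher. Krt8, Krt18 and Krt20 were lower without overlap, as were 19.9% of tested genes. In preconditioned RIRI against preconditioned sham all 5 were called higher, against 33.0% of genes, and without overlap, against 40.2%. The log2 fold changes there were 2.65 for Krt8, 1.17 for Krt7, 1.94 for Krt18, 2.03 for Krt19 and 6.68 for Krt20. These comparisons share groups, so they are not independent of one another.

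Between preconditioned and normoxic sham kidneys none of the 5 was called by limma, where 0.421% of genes were called. None of the 5 reached an unadjusted p under 0.05, and voom on recovered reads called none. Their log2 fold changes were 0.12 for Krt8, 0.20 for Krt7, 0.22 for Krt18, 0.28 for Krt19 and 0.10 for Krt20, with adjusted p values by limma of 0.705, 0.549, 0.683, 0.612 and 0.917. Krt8 was the single member whose sham groups did not overlap, being higher in each preconditioned sham kidney, and 23.0% of tested genes likewise lay higher without overlap in that comparison.

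The interaction asks whether the injury difference was the same size in preconditioned and normoxic mice. It was below 0, a smaller rise in preconditioned mice, at -1.30 ± 0.17 for Krt8 (SE, adjusted p = 0.000737, limma), -1.13 ± 0.30 for Krt18 (adjusted p = 0.0183), -0.95 ± 0.30 for Krt19 (adjusted p = 0.0418) and -2.53 ± 0.41 for Krt20 (adjusted p = 0.00202). Krt7 was at -0.53 ± 0.19 with an adjusted p of 0.0655. Of all tested genes 12.6% had a negative interaction past the threshold. The call for Krt20 was lost with voom on recovered reads, at -3.40 and an adjusted p of 0.171. Krt19 passed in 9 of 20 alternatives and failed without any 1 of normoxic RIRI replicate 2 (adjusted p = 0.067) or 3 (0.0797), normoxic sham replicate 1 (0.096) or 2 (0.0704), preconditioned RIRI replicate 2 (0.093) or 3 (0.0723), and preconditioned sham replicate 1 (0.0652) or 3 (0.0937). Krt7 passed without normoxic RIRI replicate 1, at -0.65 and an adjusted p of 0.0206.

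Expressed as a share, the FPKM gained with injury in preconditioned mice was 19.0% ± 5.67 (SE) of that gained in normoxic mice for Krt20, 40.3% ± 5.49 for Krt8, 43.1% ± 9.26 for Krt18, 52.5% ± 12.4 for Krt19 and 62.9% ± 13.1 for Krt7. On the log2 scale the shares were 72.5% ± 4.80 for Krt20, 67.1% ± 4.51 for Krt8, 63.2% ± 9.16 for Krt18, 68.0% ± 9.65 for Krt19 and 69.0% ± 10.03 for Krt7. The spread between keratins was seen on the FPKM scale, and on the log2 scale the 5 intervals of ± 1 SE all overlapped.

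The mix of keratins differed between injured and sham kidneys. Summed over the 5 genes, keratin FPKM was 805.5 ± 157.9 in preconditioned RIRI, 2037 ± 237 in normoxic RIRI, 155.5 ± 12.98 in preconditioned sham and 137.4 ± 3.69 in normoxic sham kidneys (SD, n = 3 each). That was 0.170%, 0.431%, 0.0327% and 0.0282% of all FPKM in those 4 groups. Krt20 made up 17.8%, 12.0% and 19.5% of the sum in preconditioned RIRI kidneys, 30.6%, 43.3% and 30.2% in normoxic RIRI kidneys, and at most 0.286% in any sham kidney. Krt7 made up 17.2% to 21.5% in preconditioned RIRI, 7.70% to 11.9% in normoxic RIRI, 41.5% to 43.4% in preconditioned sham and 39.3% to 43.0% in normoxic sham kidneys. Neither share overlapped between the RIRI groups.

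The share of Krt8 averaged 52.9% in preconditioned RIRI, 47.3% in normoxic RIRI, 42.8% in preconditioned sham and 44.5% in normoxic sham kidneys. It was higher without overlap in preconditioned RIRI than in preconditioned sham kidneys, by 10.06 percentage points, and the other comparisons of this share overlapped. The difference between normoxic RIRI and normoxic sham in this share changed sign without normoxic RIRI replicate 1. The ratio of type II to type I keratin FPKM averaged 2.56 in preconditioned RIRI, 1.34 in normoxic RIRI, 5.94 in preconditioned sham and 6.32 in normoxic sham kidneys. In single kidneys it was 2.41, 2.91 and 2.37 in preconditioned RIRI, and 1.65, 0.994 and 1.38 in normoxic RIRI, with no overlap. Within the Krt8 and Krt18 pair, Krt8 exceeded Krt18 by 6.21 times in preconditioned RIRI, 7.67 times in normoxic RIRI, 4.00 times in preconditioned sham and 4.25 times in normoxic sham kidneys. The RIRI groups overlapped in this ratio (exact permutation p = 0.5), and their difference of -1.46 was -0.455 once normoxic RIRI replicate 1 was left out, -0.972 without replicate 2 of preconditioned RIRI and -2.74 without replicate 3 of normoxic RIRI. With 3 kidneys a group an exact two-sided permutation test cannot go below p = 0.1, and the 36 comparisons of sums, ratios and shares had an adjusted p of at least 0.171.

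**Figure D3:**
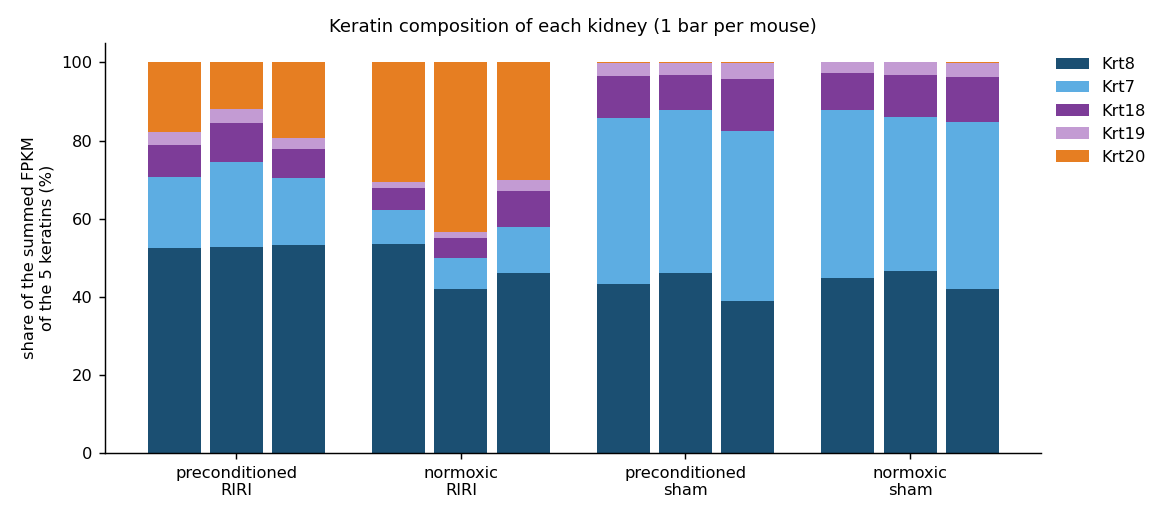
Share in percent of each keratin in the summed FPKM of the 5 genes, with 1 stacked bar for each mouse. Krt8 and Krt7 fill most of each sham bar, and Krt20 takes 30.2% to 43.3% of the normoxic RIRI bars.

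Within each group the order of the 5 levels, per gene length, differed as well. In both sham groups Krt8 and Krt7 stood at the top with overlapping ranges, followed by Krt18, Krt19 and Krt20 without overlap. In normoxic RIRI kidneys Krt8 and Krt20 overlapped at the top, Krt7 and Krt18 overlapped below them, and Krt19 was lowest. In preconditioned RIRI kidneys Krt8 stood alone, Krt7 and Krt20 overlapped, and Krt18 and Krt19 followed. For each keratin the order of group means was normoxic RIRI, preconditioned RIRI, preconditioned sham and normoxic sham.

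The urothelium also makes Krt7, Krt8, Krt18, Krt19 and Krt20, and a kidney sample can include a varying piece of the renal pelvis. The uroplakins Upk1a, Upk2 and Upk3a, which form the urothelial surface plaques, summed to 7.91, 9.99 and 3.84 FPKM in preconditioned RIRI, 1.48, 3.34 and 8.999 in normoxic RIRI, 16.7, 11.6 and 21.5 in preconditioned sham and 15.3, 10.2 and 17.7 in normoxic sham kidneys. With Upk1b, the other plaque gene of the list, the sums were 10.25, 12.32 and 4.776 in preconditioned RIRI, 1.987, 4.262 and 11.99 in normoxic RIRI, 19.77, 13.17 and 24.52 in preconditioned sham and 16.88, 11.34 and 20.3 in normoxic sham kidneys. The ranges of RIRI and sham kidneys then overlapped, which they did not by the first 3 genes. Of the 8 urothelial markers, all were above 0 in every group and 6 were tested. Of these Krt5 was called higher and Upk1a and Upk3a lower in normoxic RIRI than in normoxic sham (limma). There 41.6% of all tested genes were called higher and 30.1% lower. The whole list summed to 15.7 to 35.6 FPKM in preconditioned RIRI, 10.6 to 38.7 in normoxic RIRI, 32.3 to 54.9 in preconditioned sham and 27.6 to 40.9 in normoxic sham kidneys.

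Inside groups the picture was mixed. Replicate 3 had the highest uroplakin sum and the highest Krt7, Krt18 and Krt19 in normoxic RIRI, in preconditioned sham and in normoxic sham kidneys. In normoxic RIRI it stood at 1.95 times the group mean for the uroplakins, 1.24 times for Krt7 and 1.345 times for Krt18. In preconditioned RIRI, replicate 2 had the highest uroplakin sum and the lowest level of all 5 keratins. The part of this tissue in the differences between kidneys of 1 group was not tested.

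**Figure D4:**
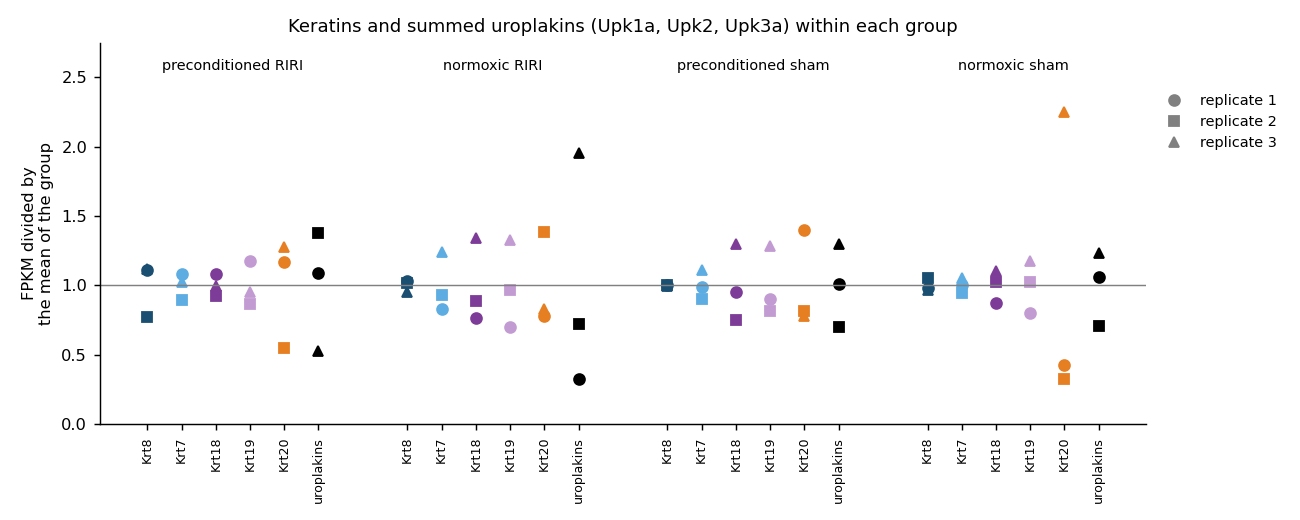
FPKM of each keratin and of the summed uroplakins divided by the mean of their group, with marker shape for the replicate. Replicate 3 of normoxic RIRI is highest in the uroplakins, at 1.95, and in Krt7, Krt18 and Krt19. Krt20 in normoxic sham kidneys, which rests on 4 to 28 reads, spreads most, and the cause was not tested.

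Markers of other epithelia that could enter a kidney sample did not all move one way. For mesothelium, the lining of capsule and peritoneum, the defining marker Lrrn4 was listed at 0 in all RIRI and preconditioned sham kidneys. Msln, another defining marker, averaged 2.33 FPKM in preconditioned RIRI, 2.42 in normoxic RIRI, 0.404 in preconditioned sham and 0.254 in normoxic sham. Its log2 fold change was 1.43 with injury in normoxic mice (adjusted p = 1.35e-06, limma) and -0.02 between the RIRI groups. Msln passed the filter through RIRI libraries alone, so it had to come out higher with injury. Upk3b, also a defining marker, was at 0.00 with injury in normoxic mice (adjusted p = 0.992, limma), and Gpm6a fell there by 2.13 on the log2 scale. The 5 markers summed to 16.3 to 20.6 FPKM in preconditioned RIRI, 9.54 to 13.5 in normoxic RIRI, 30.4 to 33.7 in preconditioned sham and 32.0 to 39.4 in normoxic sham kidneys. By group mean the largest part was Gpm6a, which is not a defining marker. It averaged 12.97 FPKM in preconditioned RIRI, 6.51 in normoxic RIRI, 27.98 in preconditioned sham and 31.38 in normoxic sham. The part of mesothelium in the keratin levels was not tested. For stratified epithelium, the defining marker Krt1 was above 0 in normoxic RIRI replicates 1 and 3 and normoxic sham replicate 3 alone, at up to 0.0483 FPKM, and Krt10 was at most 0.744 FPKM. Krt14, the other defining marker, and Krt5 rose with injury in normoxic mice. Of these Krt14 passed the filter through RIRI libraries alone, so it had to come out higher there. Ivl averaged 0.262 FPKM in preconditioned RIRI, 0.971 in normoxic RIRI, 0.0899 in preconditioned sham and 0.0590 in normoxic sham. The 7 markers of that list summed to 9.59 to 11.1 FPKM in preconditioned RIRI, 7.27 to 9.35 in normoxic RIRI, 3.09 to 3.78 in preconditioned sham and 2.87 to 4.25 in normoxic sham kidneys. Their part in the keratin levels was not tested.

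The kidney label was checked against tubule markers, which were present in every group and also differed between the groups. All 10 proximal tubule markers were called lower in normoxic RIRI than in normoxic sham, 5 of 6 thick ascending limb markers were lower, and 8 of 11 collecting duct markers were lower with 1 higher (limma), where 30.1% of all tested genes were called lower. Between preconditioned and normoxic RIRI 6 of 10, 6 of 6 and 7 of 11 of these lists were higher and none lower. There 24.7% of all tested genes were called higher and 17.4% lower. Of 8 markers of damaged tubule 7 were higher in normoxic RIRI than in normoxic sham and none lower. Of 6 general epithelial genes 5 were higher and 1 lower, where 41.6% of all tested genes were called higher. Havcr1 and Cdh6 of the damaged tubule list, and Msln of the mesothelium list, passed the filter through RIRI libraries alone. In the comparison of the RIRI groups 1 damaged tubule marker was higher and 4 were lower. For general epithelial genes 5 were lower and none higher, where 17.4% of all tested genes were called lower. Damaged tubule markers summed to 8413 to 9538 FPKM in preconditioned RIRI, 11960 to 15580 in normoxic RIRI, 705.8 to 836.0 in preconditioned sham and 569.9 to 593.3 in normoxic sham kidneys. Most of each sum was the single gene Spp1. It averaged 7065 FPKM in preconditioned RIRI, 9528 in normoxic RIRI, 542.1 in preconditioned sham and 388.8 in normoxic sham. Whether more damaged cells or more keratin RNA per cell lay behind the keratin levels was not tested.

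Of 30 other keratin genes, 6 passed the filter. The sum of all 30 was 18.7 to 20.5 FPKM in preconditioned RIRI, 20.3 to 29.3 in normoxic RIRI, 9.51 to 13.4 in preconditioned sham and 9.15 to 10.9 in normoxic sham kidneys. In normoxic RIRI against normoxic sham 5 of the 6 rose and none fell (limma), where 41.6% of all tested genes were called higher. Of the 6, 2 (Krt4 and Krt14) passed the filter through RIRI libraries alone, so they had to come out higher there. Comparing preconditioned with normoxic RIRI, 2 rose and 3 fell, where 24.7% of all tested genes were called higher and 17.4% lower. Krt4, a type II keratin of stratified inner linings, averaged 0.875 FPKM in preconditioned RIRI, 2.51 in normoxic RIRI, 0.0560 in preconditioned sham and 0.0314 in normoxic sham, with log2 fold changes of 1.72 with injury in normoxic mice and -0.87 between the RIRI groups. Krt14 and Krt5, the basal cell pair, rose with injury in normoxic mice by 0.95 and 1.20 on the log2 scale. Between preconditioned and normoxic RIRI, Krt14 was higher by 0.39 (adjusted p = 0.0233, limma), and Krt5 was at -0.02 (adjusted p = 0.95).

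The keratin genes beside the 5 did not all share their direction. Krt80, 40881 bases from Krt7, was at 0.83 with injury in normoxic mice (adjusted p = 0.000322, limma) and at -0.47 between the RIRI groups (adjusted p = 0.0237). Krt23, 39824 bases from Krt20, was at 0.96 (adjusted p = 0.015) and -0.89 (adjusted p = 0.0383). Krt15, 4882 bases from Krt19, was at 0.10 with injury in normoxic mice (adjusted p = 0.57, limma) and rose by 0.88 in preconditioned against normoxic RIRI (adjusted p = 0.000971), opposite to Krt19. Krt12, Krt78 and Krt87, the other keratin neighbours with a value, averaged at most 0.279 FPKM in every group. Eif4b, a translation initiation factor gene on the far side of Krt18, was at 0.14 with injury (adjusted p = 0.146).

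Of 16 other intermediate filament genes, 6 were tested. All 6 rose in normoxic RIRI against normoxic sham (median log2 fold change 1.11, limma), where 41.6% of all tested genes were called higher. Between preconditioned and normoxic RIRI 1 of the 6 fell and none rose (limma), where 17.4% of all tested genes were called lower. Lmna, which encodes nuclear lamins A and C, averaged 47.0 FPKM in preconditioned RIRI, 55.7 in normoxic RIRI, 17.6 in preconditioned sham and 17.4 in normoxic sham. Vim, the intermediate filament of mesenchymal cells, rose with injury in normoxic mice by 2.31 on the log2 scale, Nes by 1.47 and Lmnb1 by 0.75. Between the RIRI groups Nes fell by 0.79 in preconditioned mice (adjusted p = 0.000263, limma), and Vim was at -0.29 with an adjusted p of 0.328.

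Desmosomes and cytolinkers anchor keratin filaments to junctions and to other filaments. Of 19 such genes 14 were tested, and 11 rose and 3 fell in normoxic RIRI against normoxic sham (median log2 fold change 1.00, against 0.10 over all genes). Of all tested genes 41.6% were called higher there and 30.1% lower. Between preconditioned and normoxic RIRI 2 of the 14 rose and 6 fell (median -0.26, against 0.06 over all genes). In that comparison 24.7% of all tested genes were called higher and 17.4% lower. Ppl, which encodes periplakin, averaged 5.64 FPKM in preconditioned RIRI, 16.8 in normoxic RIRI, 2.39 in preconditioned sham and 1.89 in normoxic sham. Its log2 fold changes were 2.60 with injury in normoxic mice and -1.41 between the RIRI groups (adjusted p = 4.65e-08 and 6.76e-05, limma). Plec, which encodes plectin, was at 2.09 and -0.51, and the plakophilin genes Pkp3 and Pkp2 were at 1.79 and -0.74 and at 1.71 and -0.48, all called.

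Genes for proteins that bind, fold or remove keratins numbered 18, all tested. With injury in normoxic mice 10 rose and 2 fell (median log2 fold change 0.48, limma), where 41.6% of all tested genes were called higher and 30.1% lower. Between the RIRI groups 2 rose and 8 fell (median -0.16, limma), where 24.7% of all tested genes were called higher and 17.4% lower. Sqstm1, which encodes the p62 receptor of selective autophagy found in keratin aggregates, averaged 283.5 FPKM in preconditioned RIRI, 608.6 in normoxic RIRI, 104.3 in preconditioned sham and 123.0 in normoxic sham. Sfn, the 14-3-3 sigma gene, averaged 79.7 FPKM in preconditioned RIRI, 239.4 in normoxic RIRI, 6.72 in preconditioned sham and 5.55 in normoxic sham. Hspb1, a small heat shock protein gene, had log2 fold changes of 2.98 with injury and -1.65 between the RIRI groups, and Tgm2, a transglutaminase gene, of 1.44 and -0.32, all called.

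Of 17 genes for epithelial transcription factors 13 were tested. With injury in normoxic mice 10 rose and 1 fell (limma), where 41.6% of all tested genes were called higher and 30.1% lower. However, 2 of the 13, Sox9 and Tfap2a, passed the filter through RIRI libraries alone and had to come out higher. Of the same 13, 1 rose and 6 fell in preconditioned against normoxic RIRI (median -0.56, limma). There 24.7% of all tested genes were called higher and 17.4% lower. Sox9, a factor of tubular repair, averaged 7.50 FPKM in preconditioned RIRI, 22.2 in normoxic RIRI, 0.0552 in preconditioned sham and 0.0852 in normoxic sham. Klf5 was at 2.31 with injury and -1.05 between the RIRI groups, Ets1 at 1.07 and -0.76, and Elf3 at 1.23 and -0.25, where the last value had an adjusted p of 0.0574 by limma and the others were called. Between the sham groups limma called no gene of any of these 5 lists. At an unadjusted p under 0.05 there were 0 of 6 other keratins, 0 of 6 other intermediate filament genes, 2 of 14 junction genes, 5 of 18 binding and turnover genes and 1 of 13 factors, where 14.0% of all tested genes passed.

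**Figure D5:**
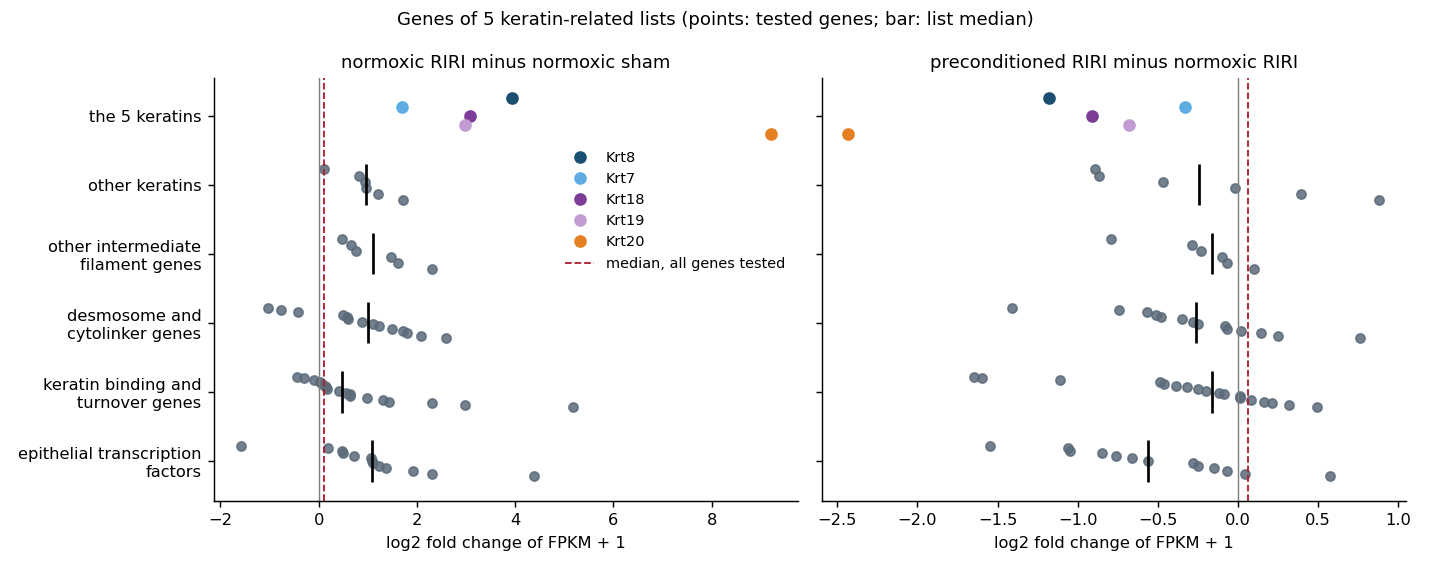
Log2 fold change of FPKM + 1 for the 5 keratins and for the tested genes of 5 keratin-related lists, in normoxic RIRI against normoxic sham on the left and preconditioned RIRI against normoxic RIRI on the right, with a bar at each list median and a dashed line at the median of all tested genes. List medians lie between 0.48 and 1.11 on the left, where those of the other keratins and of the factors include genes that passed the filter through RIRI libraries alone, and between -0.56 and -0.16 on the right.

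Likeness between genes was measured as the root mean square difference of log2(FPKM + 1) profiles over the 12 libraries, each centred on its own mean, among 8152 genes. All genes share the same libraries and injury, so these are descriptions of likeness in level only. Krt18 and Krt19 were each other's nearest gene, at 0.119. On this scale Krt8 was closer to Slc25a24 (0.175), Clcf1 (0.176) and Eif4ebp1 (0.264) than to its partner Krt18 (0.492). The added 1 shrinks the changes of low genes, so such a gene can look closer than its FPKM ratios would make it. Slc25a24 averaged 0.923 and Clcf1 1.55 FPKM in normoxic sham kidneys, where Krt8 averaged 61.1. Krt7 was nearest to Anxa5 (0.104), Plscr1 (0.126) and Cavin3 (0.132), and stood at 0.588 from Krt18 and 0.996 from Krt8.

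Krt20 had no near neighbour among the keratins, at 2.38 or more from each. Its nearest gene was Lcn2 (0.399), the tubular injury marker, which averaged 730.4 FPKM in preconditioned RIRI, 2328 in normoxic RIRI, 4.09 in preconditioned sham and 2.72 in normoxic sham. Next came the lipid droplet gene Plin2 (0.937) and Havcr1 (1.27), the gene of kidney injury molecule KIM-1. Krt20 itself averaged 0.179 FPKM in normoxic sham kidneys, where the added 1 shrinks its changes, so these distances depend on that constant. With 1 added, the injury log2 fold changes in normoxic mice were 9.21 for Krt20 and 9.27 for Lcn2. With 0.1 added, Krt20 was at 11.49. Havcr1 averaged 364.9 FPKM in preconditioned RIRI and 263.9 in normoxic RIRI, and the log2 fold change of 0.41 between them had an adjusted p of 0.575 by limma, with overlapping groups. The nearest genes after each other were D17H6S56E-5 (0.177) and Slc7a5 (0.218) for Krt18 and Adamts4 (0.217) and Slc7a5 (0.226) for Krt19. Adamts4 averaged 0.25 and Slc7a5 0.741 FPKM in normoxic sham kidneys, where the added 1 shrinks their changes.

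Levels of Krt8 and Krt18 carry an uncertainty of counting. In the GENCODE annotation of the same assembly, Krt8-ps is 98.6% identical to Krt8 transcripts over 941 bases, and Gm5200 and Gm17847 are 90.4% and 86.5% identical to Krt18 over 1267 and 1065 bases. None of the 3 pseudogenes had a row in the table, so reads shared with them could not be separated. Gm671 overlaps Krt7 and Gm36026 overlaps Krt8 on the opposite strand, at means of at most 0.287 and 0.0870 FPKM in any group.

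Over all libraries 33096854 to 35707662 reads were recovered, and 11301 to 11804 genes reached 1 FPKM. In preconditioned against normoxic RIRI 58.7% of the called genes were higher, and this share was 48.2% with median-ratio scaling and 49.8% with quantile scaling. In preconditioned RIRI against preconditioned sham the share was 63.0%, against 49.4% and 51.7%, and between sham groups 44.2%, against 23.9% and 25.0%. The median log2 fold change of all genes in normoxic RIRI against normoxic sham was 0.10, against 0.00 and 0.01. No keratin changed direction in either RIRI comparison under these scalings.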

How the data were processed

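RNA from 12 kidneys, 3 in each of 4 groups, was extracted with TRIzol and sequenced on a DNBSEQ-T7 per the labels. The authors deposited FPKM, 1 value per gene symbol and library. The submitters' processing notes name mm10 and HTSeq. The aligner, annotation and strand setting were not given in the sources used here. Proteomic data were not analysed here.

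Limma 3.58.1 in R 4.3.3 was run on log2(FPKM + 1), so fold changes of low genes are understated. It used 4 group means, all 12 libraries and a mean-variance trend, on the 12357 genes that reached 1 FPKM in 3 or more libraries. All 5 keratins passed this filter, Krt20 through its RIRI libraries alone. P-values were BH-adjusted over these genes and called under 0.05. Values of keratin composition were tested by exact permutation. Whole reads were recovered from the FPKM steps for 100% of 25553 genes, at a tolerance of 1e-06 of a read, and gave the voom alternative, which called 3130 genes higher and 2208 lower between the RIRI groups, against 3053 and 2150 in the main test. The script was tested on simulated data.

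The members and lists were chosen with earlier results of these data known. Named from each of the 5 keratin-related lists were the 4 tested genes with the smallest adjusted p in normoxic RIRI against normoxic sham. Genes named from the marker lists were not chosen by this rule. Also named were neighbours by position and the 3 genes most like each keratin with a mean of at least 5 FPKM in their highest group. Motifs were searched in RefSeq GRCm38.p6 windows. Copies were found with blastn 2.17.0 at 85% identity over 300 bases or more. The alternatives were a pseudocount of 0.1, no filter or one at 5 FPKM, median-ratio and quantile scaling, only the groups compared, no trend, a replicate block, voom, and each library left out. The labels state 3 mice a group and nothing on shared litters.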

Additional observations from a re-analysis of the deposited data

Results flagged for a closer look

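Each of 4 keratins had a test of the difference between the injury effects of preconditioned and normoxic mice that passed the threshold (limma, BH-adjusted). The injury log2 fold change of preconditioned mice less that of normoxic mice was -1.30 for Krt8, with 2.65 in preconditioned and 3.94 in normoxic mice. It was -1.13 for Krt18, with 1.94 in preconditioned and 3.07 in normoxic mice. It was -0.95 for Krt19, with 2.03 in preconditioned and 2.98 in normoxic mice. It was -2.53 for Krt20, with 6.68 in preconditioned and 9.21 in normoxic mice. Over 20 alternatives the interaction stayed called in 20 for Krt8, 19 for Krt18, 9 for Krt19 and 19 for Krt20.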

How the results depend on the processing

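In all 21 alternatives the 5 keratins stayed called higher in normoxic RIRI than in normoxic sham, and Krt8, Krt18 and Krt20 lower in preconditioned than in normoxic RIRI. Krt7 became called between the RIRI groups with median-ratio rescaling (-0.40) and with the replicate block (-0.33), and its interaction with the block (-0.53). Krt19 between the RIRI groups was lost at -0.68 with no filter and with only the groups compared. In the interaction 2 of 5 keratins, not 4, were called with no filter and with voom. There Krt18 was lost with no filter (-1.13), Krt19 with no filter (-0.95), quantile normalization (-0.94) and voom (-1.02), and Krt20 with voom (-3.40). Leaving out 1 library gave -0.45 to -0.16 for Krt7 and -0.90 to -0.45 for Krt19 between the RIRI groups, and interactions of -0.65 to -0.36 for Krt7 and -1.18 to -0.73 for Krt19. The cause was not tested.

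Between the sham groups, leaving out 1 library gave differences of -0.972 to 0.258 in the type II to type I ratio, -0.791 to 0.301 in the Krt8 to Krt18 ratio, and, in percent of the keratin sum, -3.37 to 0.259 for Krt8, -0.482 to 1.39 for Krt7, -0.608 to 1.55 for Krt18 and -0.00444 to 0.117 for Krt20. For the share of Krt8 in normoxic RIRI minus normoxic sham the range was -0.399 to 5.35, and for Krt19 in preconditioned RIRI minus preconditioned sham -0.512 to 0.0111. Over 18 same-number pairs of libraries the correlation of deviations ran from -0.248 to 0.165, and 4 were over 0.1. Whether the numbers pair the mice cannot be told from this, as no pairs of different numbers were set beside them. The replicate block changed no keratin call beyond those of Krt7. Precision is limited by 3 mice a group, and for Krt20 in sham kidneys by 4 to 28 reads.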
